A study of Homo sapiens with 6 samples.

Results

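Neuronal adhesion molecules and synapse organisers are surface and secreted proteins that hold axons, dendrites and glia together and line up the release site of one neuron with the receptors of the next. The 38 genes described here were taken by name from the count tables, which list 19923 genes. They are the neurexins NRXN2 and NRXN3, 4 neuroligins, 4 LRRTM genes, 5 SLITRK genes, 6 contactins, 5 contactin-associated proteins, 4 genes of the L1 family, both NCAM genes, 3 SynCAM genes (CADM1 to CADM3) and 3 olfactomedins. Of the 38, 35 had enough counts to be tested, and all 38 lie at positions of the human build hg38 where GENCODE 44 has a gene of the same symbol.

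The cells were Kelly cells, an established human neuroblastoma line with amplified MYCN, labelled as wild type. A group of 3 samples received a control siRNA (siControl), and another group of 3 received an siRNA against METTL3 (siMETTL3). RNA was taken 72 h after transfection, selected for poly(A) tails and sequenced. METTL3 is the methyltransferase that places N6-methyladenosine (m6A), the most common internal mark of messenger RNA. The knockdown was transient and made in 1 line. The number of different siRNA sequences behind it, and whether the 3 samples of a group were separate cultures, are not given in the labels, so that every p-value below measures the spread between these samples, which may be technical.

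Neurexins sit on the presynaptic membrane and bind neuroligins and LRRTM proteins across the synaptic cleft. SLITRK proteins pair instead with presynaptic receptor tyrosine phosphatases. Contactins are held in the membrane by a lipid anchor and form complexes with contactin-associated proteins and with L1 family members along axons and at nodes of Ranvier, while NCAM and SynCAM proteins bind copies of themselves or of their close relatives on the neighbouring cell. In developing sympathetic neurons, the lineage from which neuroblastoma arises, such molecules guide and bundle axons.

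METTL3 was measured first, as the check of the labels. Levels are given as CPM, the counts of a gene per 1e+06 counts of its library after TMM scaling. METTL3 (chromosome 14, 21498133 to 21511342, hg38, a span that overlaps TOX4) averaged 54.1 ± 1.801 CPM in the siControl libraries and 33.02 ± 1.27 CPM after knockdown (SD, n = 3 each), a fall that left 61.0% of the control level (log2 fold change -0.71, SE 0.070, adjusted p = 4.68e-06 by edgeR's quasi-likelihood test with Benjamini-Hochberg adjustment, the test used throughout). Reads were counted over the whole span, introns included, and those in the stretch shared with TOX4 were counted for both genes. The 61.0% is thus of span counts and is not a measure of METTL3 messenger RNA alone. Total counts were 15430000 in siControl replicate 3 and between 20060778 and 21565013 in the other libraries. The libraries of siMETTL3 correlated at r = 0.993 to 0.994 across genes (log2 CPM), those of siControl at 0.986 to 0.992, and libraries of different groups at 0.973 to 0.983. Of 15311 genes tested, 37.8% passed an adjusted p of 0.05: 18.6% as higher in siMETTL3 and 19.2% as lower. The 13 markers of neuroblastoma and sympathetic cells were all tested, with 7 higher and 3 lower, and their summed level was 6809 to 7276 CPM in siControl and 9593 to 10209.9 CPM in siMETTL3. MYCN, the amplified gene, gave a large part of that sum, at 3019.6 ± 134 CPM in siControl and 4636 ± 168 CPM in siMETTL3 (SD, n = 3 each). The summed level of Schwann and glial markers was 12.4 to 12.9 CPM in siControl and 17.6 to 19.1 CPM in siMETTL3 (9 markers, 6 tested, 2 higher and none lower), and none of those 9 was at 0 in all libraries. Fibroblast markers summed to 118 to 139 CPM in siControl and 121 to 129 CPM in siMETTL3, endothelial markers to 9.36 to 10.4 and 9.76 to 12.4 CPM, and leukocyte markers to at most 3.24 and 2.71 CPM. NFASC, NCAM1, NRCAM and L1CAM are also made by glia in tissue. All libraries here are of 1 established line. Whether the cells of that line changed in state was not tested. Fewer cells in a state and less RNA per cell cannot be told apart in bulk RNA.

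The adhesion genes moved in both directions. Of the 35 tested members, 15 passed the test (42.9%), 10 of them higher in siMETTL3 (28.6%, against 18.6% of all genes tested) and 5 lower (14.3%, against 19.2%). The 10 higher members were OLFM1, NRXN3, CNTN3, NFASC, CNTNAP3, CNTN6, NRXN2, CNTNAP2, NCAM1 and NRCAM, and the 5 lower members were NCAM2, CNTN1, CADM2, SLITRK5 and OLFM3. Leaving out any one of the siMETTL3 libraries lowered the count of lower members from 5 to 3 and of higher members from 10 to 7 or 8. In those fits 27.2% to 29.2% of all genes tested passed, against 37.8% with all libraries. The median log2 fold change of the tested members was 0.062 against -0.0021 for all genes, and their median absolute log2 fold change was 0.31 against 0.21. Only OLFM1 and NRXN3 changed by 2-fold or more among the members, 2 of 35 against 3.35% of all genes tested. In 19 tested members the 3 libraries of one group all lay above the 3 of the other, 12 of them higher and 7 lower in siMETTL3; this held for 49.9% of all genes tested.

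**Figure D1:**
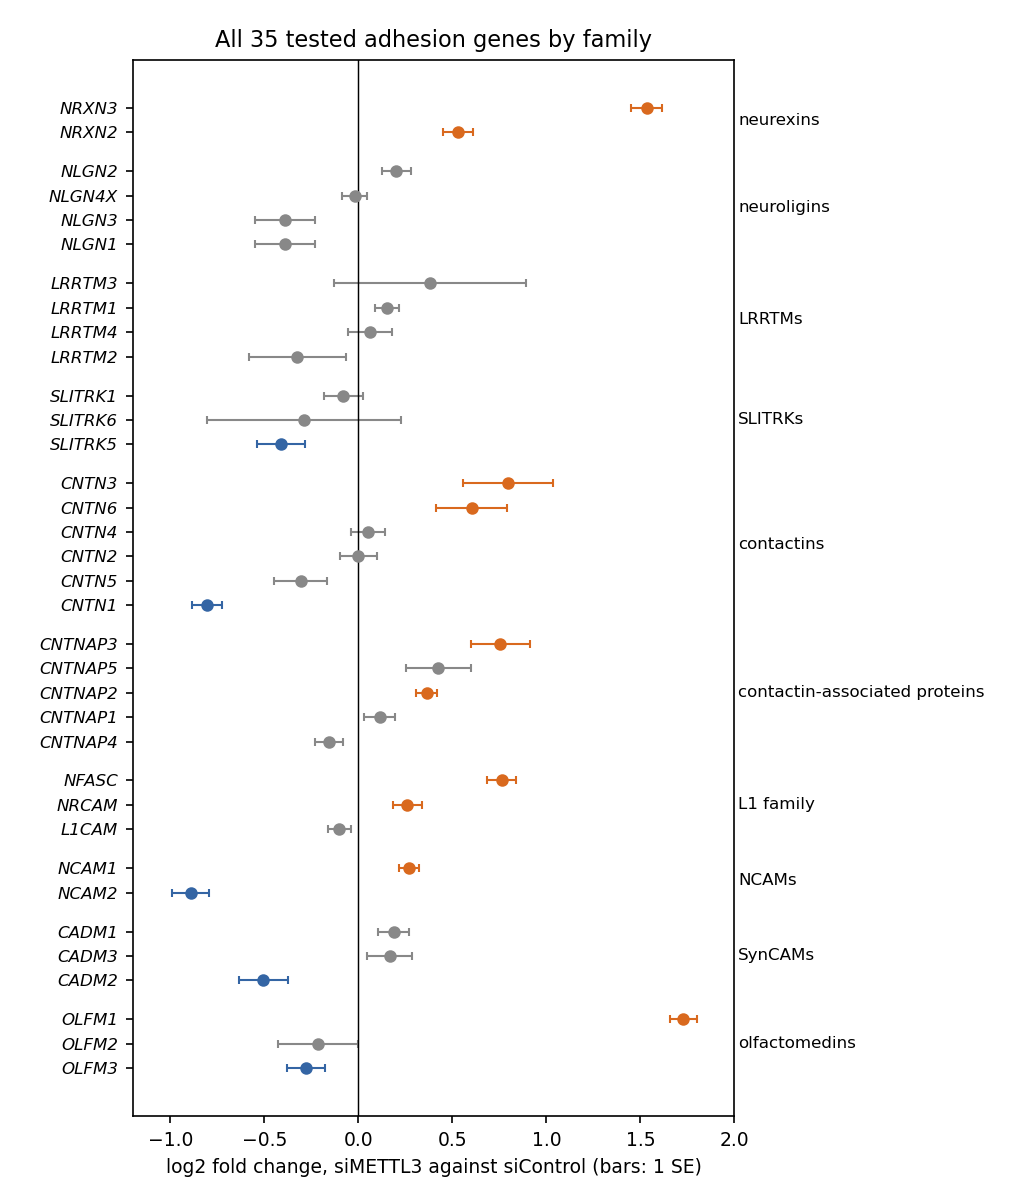
Log2 fold change of siMETTL3 against siControl (x axis) for the 35 tested adhesion genes, grouped by family, with bars of 1 SE. Orange points were higher and blue points lower at an adjusted p under 0.05, and grey points did not pass; the changes run from -0.89 (NCAM2) to 1.73 (OLFM1), and neuroligins and LRRTM genes hold grey points only.

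Another 3 members fell below the filter on low counts. SLITRK4 had no count in any library. The floor that a count of 0 allows, 3 counts in a library, was 0.139 to 0.194 CPM. SLITRK2 had 2 counts in siMETTL3 replicate 1 and none elsewhere, and CHL1, an L1 family member, had 4, 8 and 10 counts in siControl and 6, 8 and 8 in siMETTL3. Differences in these genes were not detectable at this depth.

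OLFM1 and NRXN3 carried the largest changes, and both have 3 annotated start sites in RefSeq. The counts cover the whole span of a gene and add all starts together. The windows at the first and the last annotated start of each gene are printed here, without the start between them. Each window is 300 bases long and lies mostly upstream of the start, from RefSeq (GRCh38.p14), on the plus strand. Capitals mark CAGCTG, an E-box read by proneural factors, and GGGCGG, the core read by SP1 and its relatives, on either strand. Both letter strings are common: CAGCTG was found in 19.6% of 56 windows from 33 members with an entry and in 17.9% of 35116 windows of all genes, and GGGCGG in 46.4% and 45.0%.
NRXN3, first start, chr14:78170123-78170422: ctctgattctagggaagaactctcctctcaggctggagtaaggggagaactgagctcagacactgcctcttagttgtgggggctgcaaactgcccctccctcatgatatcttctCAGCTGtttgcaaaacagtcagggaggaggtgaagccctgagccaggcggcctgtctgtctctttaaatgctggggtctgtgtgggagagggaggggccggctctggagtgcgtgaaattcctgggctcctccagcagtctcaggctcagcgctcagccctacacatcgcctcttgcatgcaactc
NRXN3, last start, chr14:79279130-79279429: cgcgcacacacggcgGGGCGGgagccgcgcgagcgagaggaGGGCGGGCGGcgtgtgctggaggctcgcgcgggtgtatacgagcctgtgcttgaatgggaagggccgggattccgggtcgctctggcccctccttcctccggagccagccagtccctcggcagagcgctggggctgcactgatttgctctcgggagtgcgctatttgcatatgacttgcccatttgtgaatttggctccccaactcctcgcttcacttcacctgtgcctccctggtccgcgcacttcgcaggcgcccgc
OLFM1, first start, chr9:135075255-135075554: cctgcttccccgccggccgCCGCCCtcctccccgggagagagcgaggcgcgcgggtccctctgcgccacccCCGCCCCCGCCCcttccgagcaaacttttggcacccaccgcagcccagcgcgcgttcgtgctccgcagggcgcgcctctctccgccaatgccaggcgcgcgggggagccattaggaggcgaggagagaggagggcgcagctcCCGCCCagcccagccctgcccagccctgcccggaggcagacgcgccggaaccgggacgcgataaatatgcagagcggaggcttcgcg
OLFM1, last start, chr9:135087418-135087717: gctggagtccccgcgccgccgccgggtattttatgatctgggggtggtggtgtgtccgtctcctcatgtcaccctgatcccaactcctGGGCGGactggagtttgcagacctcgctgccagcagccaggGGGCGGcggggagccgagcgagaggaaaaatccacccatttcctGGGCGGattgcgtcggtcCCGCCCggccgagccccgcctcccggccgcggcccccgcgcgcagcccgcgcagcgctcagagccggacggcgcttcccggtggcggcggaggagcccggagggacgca

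The NRXN3 windows differ in composition. The first has a GC content of 57.0% with 5 CpG sites and the last has 67.0% with 30 CpG sites, while both OLFM1 windows are rich in GC (74.7% with 38 CpG sites and 72.3% with 36). From which start the added NRXN3 and OLFM1 RNA came was not measured. A match is only a run of letters in the window.

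The methyltransferase that METTL3 belongs to is best known for acting on the central A of GGACU, written GGACT in DNA letters. The canonical GENCODE 44 transcripts of all 38 members were searched for these letters. Hits are shown for the member that rose most and for an abundant member that fell, as examples only. Each has 8 bases on each side and GGACT in capitals. OLFM1 holds 4 such strings, the first 3 in its coding sequence and the last in the 3' UTR, and CNTN1 holds 2, one in the coding sequence and one in the 3' UTR.
OLFM1 chr9:135095954-135095958: aaatgaaaGGACTggagtcca
OLFM1 chr9:135119728-135119732: cgcagcctGGACTatgccggt
OLFM1 chr9:135120076-135120080: tccatgctGGACTacaacccc
OLFM1 chr9:135120223-135120227: ccacaaagGGACTcctgtgaa
CNTN1 chr12:40993163-40993167: agagcagtGGACTtaatccca
CNTN1 chr12:41072340-41072344: gtagtataGGACTgtgctttg

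These letters are common. They occur in 33 of the 35 tested members (94.3%) and in 91.3% of 14591 tested genes with a transcript. The 2 tested members without GGACT were CNTN6 and OLFM3, of which the first was higher and the second lower in siMETTL3. NRXN3 holds 14. Methylation of these sites was not measured here.

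Neurexins are the presynaptic receptors that organise the release site, and both measured members rose. NRXN3 (chromosome 14, 78170373 to 79868290) was at 40.3, 37.6 and 48.6 CPM in siControl and at 127, 118 and 119.7 CPM in siMETTL3. The groups lay far apart, and the highest siControl library was below every siMETTL3 library. The change was 2.90-fold (log2 fold change 1.53, SE 0.083, adjusted p = 2.72e-08). NRXN2 (chromosome 11, 64606174 to 64723197) stood at 118, 107 and 94.0 CPM in siControl and at 155, 163 and 143 CPM in siMETTL3, again without overlap (log2 fold change 0.53, SE 0.080, adjusted p = 0.000217). In siControl there were 2.93, 2.84 and 1.94 NRXN2 counts for each NRXN3 count, and in siMETTL3 1.22, 1.38 and 1.19. The balance of the pair moved toward NRXN3 in every siMETTL3 library (exact two-sided permutation test, p = 0.1, the smallest that 3 against 3 allows). That shift follows from the levels of the 2 genes given above and is a description only. These ratios are of whole-span counts, so they are not ratios of molecules.

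Neuroligins, the postsynaptic partners of neurexins, gave no member past the threshold with all 6 libraries and the settings used throughout. NLGN1, found mostly at excitatory synapses, was among the most abundant members, with 496, 502 and 743 CPM in siControl and 470.5, 426 and 431 CPM in siMETTL3. Every siMETTL3 library was below every siControl library, but siControl replicate 3 was far above the others of its group (log2 fold change -0.39, SE 0.16, adjusted p = 0.105). Without that library the difference was smaller and passed the test (-0.17, adjusted p = 0.00554), but with a GC content offset in addition, an alternative added after seeing the data, it was -0.079 and did not pass (adjusted p = 0.172). NLGN1 passed in 5 of 21 alternatives. NLGN2, the neuroligin of inhibitory synapses, had 60.5, 62.5 and 51.4 CPM in siControl and 67.3, 70.3 and 63.6 CPM in siMETTL3. These groups were also separated, by a small margin (log2 fold change 0.20, SE 0.078, adjusted p = 0.0533). NLGN2 passed in 8 of 21 alternatives, among them the fits without siControl replicate 1 (0.23, adjusted p = 0.0295) or replicate 2 (0.26, adjusted p = 0.0490), and without siControl replicate 3 the difference was 0.12 (adjusted p = 0.141). NLGN3 averaged 8.26 ± 1.52 CPM in siControl and 6.29 ± 0.36 CPM in siMETTL3 (SD, n = 3 each; log2 fold change -0.39, adjusted p = 0.0691). NLGN4X averaged 105 ± 9.32 and 104 ± 2.11 CPM (SD, n = 3 each; log2 fold change -0.02, SE 0.067, adjusted p = 0.861), and reads from its near-identical copy on another chromosome could be counted with it. The 4 neuroligins thus gave no call with all 6 libraries in the comparison in which both neurexins were higher. Whether neurexins and neuroligins differ in their change was not tested.

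LRRTM proteins are leucine-rich postsynaptic partners of neurexins, and none of the 4 passed. LRRTM1 was at 49.96, 51.4 and 53.1 CPM in siControl and 58.0, 54.7 and 58.9 CPM in siMETTL3, which did not overlap (log2 fold change 0.15, SE 0.064, adjusted p = 0.0774). LRRTM4 averaged 13.04 ± 1.57 and 13.6 ± 0.270 CPM, and LRRTM2 3.40 ± 0.939 and 2.69 ± 0.605 CPM (SD, n = 3 each). LRRTM3 had only 5, 14 and 11 counts in siControl and 8, 16 and 20 in siMETTL3. LRRTM1, LRRTM2 and LRRTM3 lie inside the alpha-catenin genes CTNNA2, CTNNA1 and CTNNA3, and a read in such a region was counted for both genes, without regard to strand. CTNNA1, which links cadherins to actin, was higher in siMETTL3 (log2 fold change 0.69, adjusted p = 1.34e-06), while LRRTM2 inside it had a log2 fold change of -0.32 (adjusted p = 0.351). The values of these 3 LRRTM genes are uncertain for that reason.

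SLITRK proteins, postsynaptic ligands of LAR-type phosphatases, were represented by SLITRK1 and SLITRK5, with SLITRK6 near the floor. SLITRK5 was at 27.4, 32.7 and 42.2 CPM in siControl and at 26.03, 25.02 and 25.3 CPM in siMETTL3. The siMETTL3 libraries lay close together below all siControl libraries, of which replicate 3 was the highest (log2 fold change -0.41, SE 0.13, adjusted p = 0.0231). Without siControl replicate 3 the change was -0.24 (adjusted p = 0.0369), and the call was lost without siControl replicate 2 (adjusted p = 0.0508) or any one of the siMETTL3 libraries (adjusted p = 0.0624 to 0.0827). SLITRK1 averaged 19.0 ± 1.17 and 18.0 ± 1.90 CPM (SD, n = 3 each; log2 fold change -0.08, adjusted p = 0.589). SLITRK6 had 10, 13 and 22 counts in siControl and 18, 18 and 6 in siMETTL3.

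Contactins split in direction. CNTN1 (chromosome 12, 40692439 to 41072415), the partner of contactin-associated proteins at nodes and a receptor in neurite growth, had the highest level per kilobase of transcript of all 38 members in siControl, 90.5 CPM per kb. It fell from 469, 482 and 588 CPM in siControl to 288, 287 and 305 CPM in siMETTL3, 57.3% of the control level. Every siMETTL3 library was lower than every siControl library by a wide margin (log2 fold change -0.80, SE 0.079, adjusted p = 7.24e-06), and without siControl replicate 3, the highest, the change was -0.70. CNTN3 and CNTN6, 2 contactins present at low levels, rose. CNTN3 had 3.15, 1.60 and 2.52 CPM in siControl and 3.79, 4.22 and 4.67 CPM in siMETTL3 (log2 fold change 0.80, SE 0.24, adjusted p = 0.0177). CNTN6, which also binds Notch, had 3.38, 4.15 and 5.90 CPM in siControl and 6.51, 6.75 and 6.81 CPM in siMETTL3 (log2 fold change 0.60, SE 0.19, adjusted p = 0.0225). Neither gene's groups overlapped, and the siControl values were the more scattered. Without siControl replicate 3, the CNTN6 change was 0.83 (adjusted p = 0.000539). The CNTN3 call was lost without siControl replicate 2 or siMETTL3 replicates 2 or 3 (adjusted p = 0.0601 to 0.0881), and the CNTN6 call without any library other than siControl replicate 3 (adjusted p = 0.0594 to 0.0880).

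The other contactins did not pass. CNTN2, the axonal contactin TAG-1, averaged 22.7 ± 2.48 CPM in siControl and 22.8 ± 1.33 CPM in siMETTL3, and CNTN4 averaged 24.5 ± 1.28 and 25.3 ± 1.96 CPM (SD, n = 3 each). CNTN5 was at 17.1, 20.2 and 26.9 CPM in siControl and 18.0, 16.4 and 17.0 CPM in siMETTL3, overlapping groups in which siControl replicate 3 was again the highest (log2 fold change -0.31, SE 0.14, adjusted p = 0.103). The CNTN5 difference passed without siControl replicate 1 (-0.45, adjusted p = 0.00509) and was -0.12 without siControl replicate 3 (adjusted p = 0.398). As a share of the counts of all 6 contactin genes, CNTN1 made up 86.8%, 86.6% and 87.9% in siControl and 79.1%, 78.4% and 80.6% in siMETTL3. The share was lower in every siMETTL3 library, a description that rests mostly on CNTN1 itself.

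Contactin-associated proteins gave 2 higher members and no lower one. CNTNAP2 (CASPR2, chromosome 7, 146116002 to 148420998), which gathers potassium channels beside the node and is the longest gene of the set, was at 489, 511 and 533 CPM in siControl and at 658, 641 and 673 CPM in siMETTL3. The groups were far apart relative to their spread (log2 fold change 0.36, SE 0.056, adjusted p = 0.000225). CNTNAP3 was at 7.51, 10.5 and 7.23 CPM in siControl and at 13.3, 16.8 and 12.6 CPM in siMETTL3, without overlap (log2 fold change 0.76, SE 0.16, adjusted p = 0.00223). It is uncertain which copy those reads came from, because CNTNAP3B and CNTNAP3C are near-identical: CNTNAP3C had 38, 36 and 18 counts in siControl and 64, 44 and 50 in siMETTL3 (log2 fold change 0.64, adjusted p = 0.0795). CNTNAP4 was at 34.9, 35.7 and 33.2 CPM in siControl and 30.1, 32.5 and 30.8 CPM in siMETTL3, which did not overlap (log2 fold change -0.16, adjusted p = 0.126), and its span overlaps another gene of the tables. CNTNAP1 (CASPR), the partner of CNTN1 beside the node, whose span overlaps CCR10, averaged 42.7 ± 4.64 and 46.4 ± 1.79 CPM (SD, n = 3 each; log2 fold change 0.11, adjusted p = 0.298). The CNTNAP1 difference was 0.21 without siControl replicate 1 (adjusted p = 0.0444) and 0.051 without siControl replicate 3 (adjusted p = 0.636). CNTNAP5 was at 4.63, 4.70 and 6.97 CPM in siControl and 7.14, 7.53 and 6.91 CPM in siMETTL3. Its groups overlapped through siControl replicate 3 alone, and it passed without that library (log2 fold change 0.42, adjusted p = 0.0678 with it, and 0.62, adjusted p = 0.00399 without it).

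L1 family proteins tie the membrane to ankyrin and the spectrin skeleton, and their members at nodes rose. NFASC (neurofascin, chromosome 1, 204828651 to 205022822) was at 129.7, 116 and 102 CPM in siControl and at 195, 205 and 191 CPM in siMETTL3. The lowest siMETTL3 library was well above the highest siControl library (1.70-fold, log2 fold change 0.76, SE 0.076, adjusted p = 7.36e-06). NRCAM had 47.7, 51.1 and 58.5 CPM in siControl and 62.6, 65.1 and 60.3 CPM in siMETTL3, a narrow separation (log2 fold change 0.26, SE 0.077, adjusted p = 0.0163). That call was lost without siControl replicate 2 or siMETTL3 replicates 1 or 2 (adjusted p = 0.0591 to 0.0853). L1CAM, the founding member and an axon growth molecule, was at 134, 137 and 128 CPM in siControl and 119, 133 and 121 CPM in siMETTL3, and the groups overlapped (log2 fold change -0.10, SE 0.061, adjusted p = 0.216). The span of L1CAM overlaps U52112.2, and reads in the shared stretch were counted for both.

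NCAM1 and NCAM2, the 2 neural cell adhesion molecules, moved apart. NCAM1 (CD56, chromosome 11, 112961247 to 113278436), a long-used surface marker of neuroblastoma, was at 297, 287 and 300.4 CPM in siControl and at 359.7, 349.9 and 355 CPM in siMETTL3. The spread within each group was small and the groups did not overlap (log2 fold change 0.27, SE 0.053, adjusted p = 0.00128). NCAM2 (chromosome 21, 20998409 to 21543329), known from the sorting of olfactory axons, fell from 73.1, 70.0 and 93.3 CPM in siControl to 43.8, 41.1 and 42.2 CPM in siMETTL3, 53.9% of the control level. This was the largest decrease among the members (log2 fold change -0.89, SE 0.096, adjusted p = 1.94e-05), and without siControl replicate 3 it was -0.76. There were 4.06, 4.10 and 3.22 NCAM1 counts for each NCAM2 count in siControl and 8.22, 8.52 and 8.42 in siMETTL3. The higher ratio in every siMETTL3 library follows from the levels of the 2 genes and adds no test of its own.

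SynCAM proteins are immunoglobulin molecules that bind each other across the cleft, and 1 of 3 passed. CADM2 (chromosome 3, 84958981 to 86074429) was at 71.5, 73.0 and 99.6 CPM in siControl and at 60.2, 50.6 and 60.6 CPM in siMETTL3. All siMETTL3 libraries were lower, and siControl replicate 3 stood above the rest (log2 fold change -0.51, SE 0.13, adjusted p = 0.0130). Without that library the change was -0.34, and with a GC content offset in addition -0.25. CADM1 was at 196, 193 and 243 CPM in siControl and 248, 232 and 239 CPM in siMETTL3. Only siControl replicate 3 reached into the siMETTL3 range (log2 fold change 0.19, SE 0.081, adjusted p = 0.0866), and without it the change was 0.30 (adjusted p = 1.90e-05). CADM3, which overlaps ACKR1, averaged 14.4 ± 1.55 and 16.1 ± 1.74 CPM (SD, n = 3 each; log2 fold change 0.17, adjusted p = 0.291).

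Olfactomedins are secreted glycoproteins of the extracellular space around synapses. OLFM1 (noelin, chromosome 9, 135075422 to 135121179), which binds AMPA receptor complexes, was at 68.5, 76.8 and 62.8 CPM in siControl and at 222, 240.3 and 228 CPM in siMETTL3. It was the member with the largest change, 3.31-fold, and the groups lay far apart (log2 fold change 1.73, SE 0.073, adjusted p = 2.06e-09). Per kilobase of transcript, its mean level was 24.9 CPM per kb in siControl and 82.7 CPM per kb in siMETTL3. OLFM3 was at 50.8, 50.3 and 65.8 CPM in siControl and at 47.4, 41.8 and 47.9 CPM in siMETTL3. This separation was narrow, and the adjusted p was the highest of the 15 (log2 fold change -0.28, SE 0.10, adjusted p = 0.0451). Without siControl replicate 3 the change was -0.15 and did not pass (adjusted p = 0.116), and the call was also lost without any one siMETTL3 library (adjusted p = 0.0729 to 0.176). OLFM2 averaged 3.60 ± 0.634 and 3.12 ± 0.480 CPM (SD, n = 3 each; adjusted p = 0.460). OLFM1 made up 55.7%, 58.5% and 47.7% of olfactomedin counts in siControl and 81.6%, 84.1% and 81.7% in siMETTL3, again a description that follows from the levels above.

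**Figure D2:**
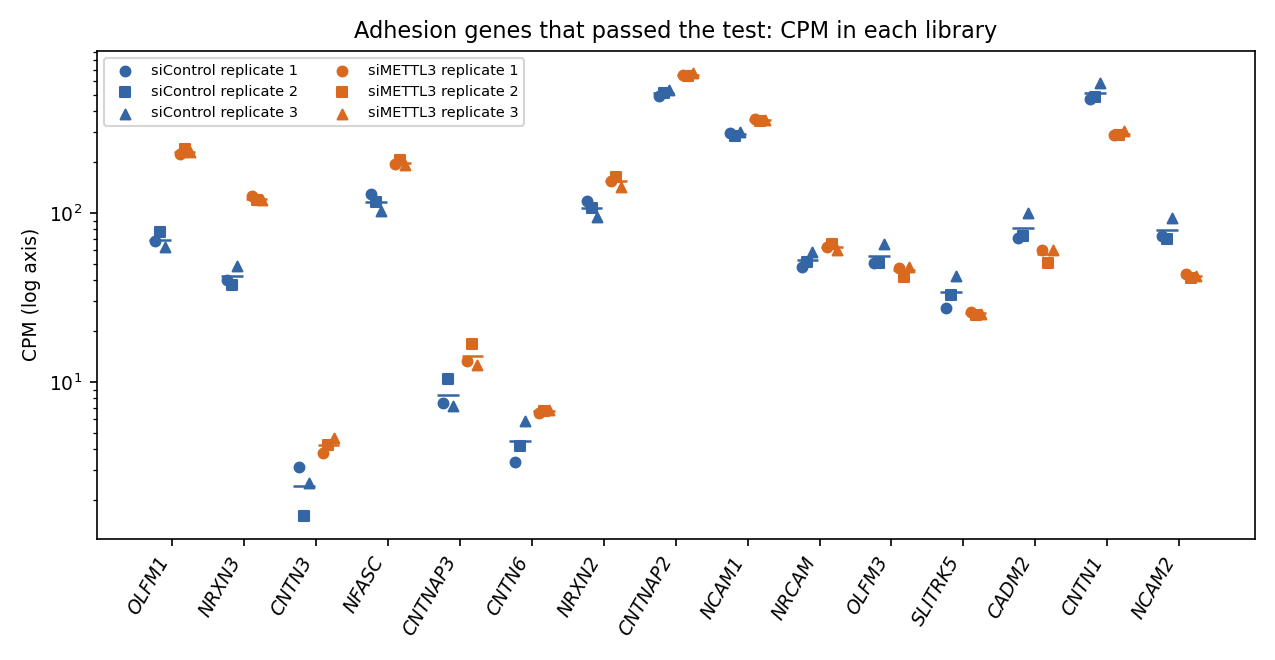
CPM on a log axis in each of the 6 libraries for the 15 adhesion genes that passed the test, ordered by fold change, with siControl in blue and siMETTL3 in orange; marker shapes give the replicate and short lines the group means. In all 15 genes the groups do not overlap, from OLFM1 (means 69.4 and 230.1 CPM) at the left to NCAM2 (78.8 and 42.4 CPM) at the right.

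Summed over all 38 genes, the members made up 0.315%, 0.316% and 0.357% of all counts in siControl and 0.357%, 0.353% and 0.353% in siMETTL3. The share in siControl replicate 3 was level with siMETTL3, so the groups overlapped (exact two-sided permutation test, p = 0.4). By level per kilobase of transcript in siControl, CNTN1 was followed by CNTNAP2 (54.1 CPM per kb), NCAM1 (50.6), NLGN1 (35.7) and L1CAM (25.9). Measured per kilobase of the whole span, over which reads were counted, L1CAM, whose count includes reads shared with U52112.2, came first with 5.40 CPM per kb and CNTN1 eighth with 1.35. The order of the genes therefore depends on which length is used, and the share of intronic reads cannot be told from these counts.

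The members are long genes. The median span of the tested members was 215549 bases against 35511 bases for all genes tested, and 22 of 35 members were longer than 100 kb against 3397 of 15311 genes. Their canonical transcripts had a median length of 5819 bases against 3357, 18 exons against 9, and a GC content of 44.02% against 48.6%. There were 4 members that spanned more than 1 Mb: CNTNAP2 and NRXN3 were higher, CADM2 was lower and CNTN5 did not pass. Across the 35 members, log2 fold change and log10 span had r = 0.11 and rho = 0.064, given as a description over genes that share the same 6 libraries. For log2 fold change and transcript GC content the values were r = 0.26 and rho = 0.33.

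The level of the members in siControl replicate 3 moved with GC content, and the part of this in the results was not tested. The GC content used is that of the canonical transcript, while reads were counted over the whole span. The transcript is 1.48% of the span in NCAM2, 0.85% in CADM2 and 21.5% in SLITRK5. The difference of siControl replicate 3 from the other 2 siControl libraries (log2 of CPM + 0.5) had r = -0.68 and rho = -0.68 with transcript GC content across the 35 members, and r = -0.30 and rho = -0.37 across all genes with a transcript. In 22 members replicate 3 was the highest siControl library and in 10 the lowest. Of the 5 members that fell, 4 had AT-rich transcripts, with a GC content of 33.8% in NCAM2, 34.4% in CADM2, 37.1% in OLFM3 and 38.9% in CNTN1. SLITRK5 had 52.7%. Tested members in the same range that did not pass were NLGN1 (33.9%), SLITRK6 (36.9%), LRRTM3 (37.3%) and LRRTM2 (38.6%). Of the 10 that rose, GC content ran from 40.2% in CNTNAP3 to 64.5% in NRXN2. With an offset that removes a smooth trend on GC content from each library, an alternative chosen after seeing the data, NCAM2 changed by -0.75, CNTN1 by -0.72, CADM2 by -0.37 and SLITRK5 by -0.47, all still lower at an adjusted p of 0.0464 or less. OLFM3 changed by -0.18 and did not pass (adjusted p = 0.0852). OLFM1 (1.66) and NRXN3 (1.55) were nearly as before. Under this offset NLGN3 (-0.45, adjusted p = 0.0316) and L1CAM (-0.17, adjusted p = 0.0133) were lower, and CNTNAP5 (0.46, adjusted p = 0.0354) and CADM1 (0.21, adjusted p = 0.0268) were higher.

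**Figure D3:**
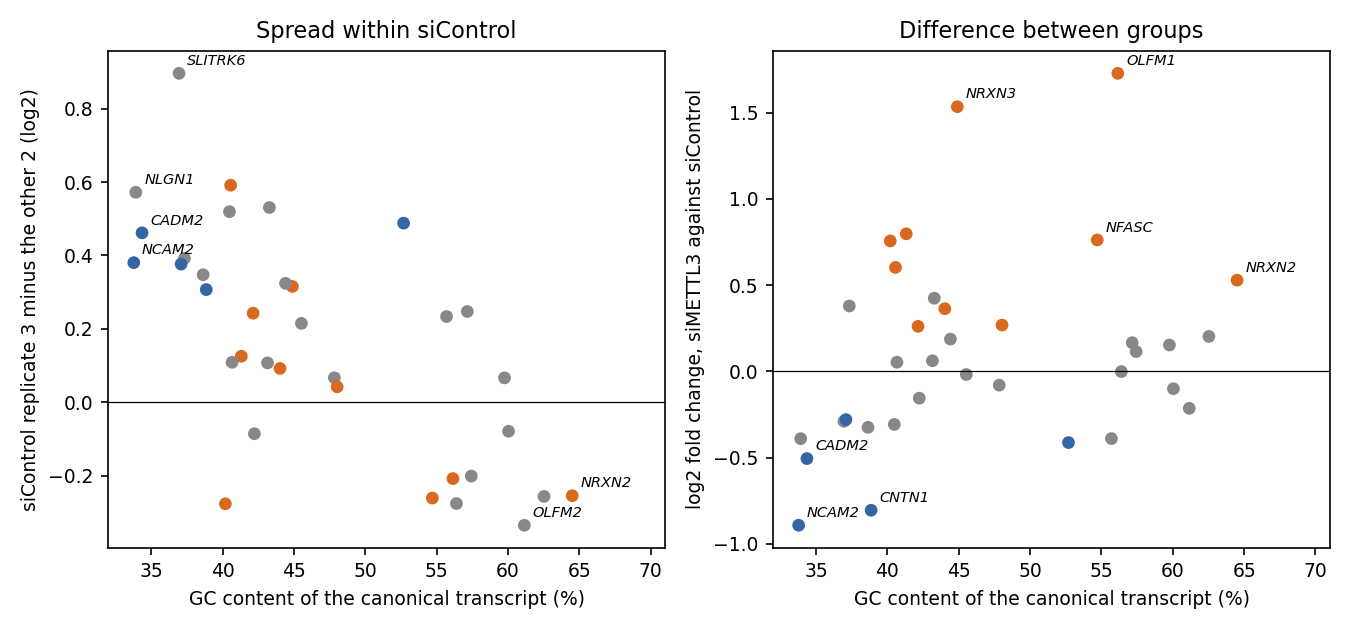
Transcript GC content of the 35 tested adhesion genes (x axis, percent) against the log2 difference of siControl replicate 3 from the other 2 siControl libraries (left) and against the log2 fold change of siMETTL3 over siControl (right); orange genes passed as higher, blue as lower and grey did not pass. The left panel falls with GC content (r = -0.68), while the right panel is scattered (r = 0.26).

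**Figure D4:**
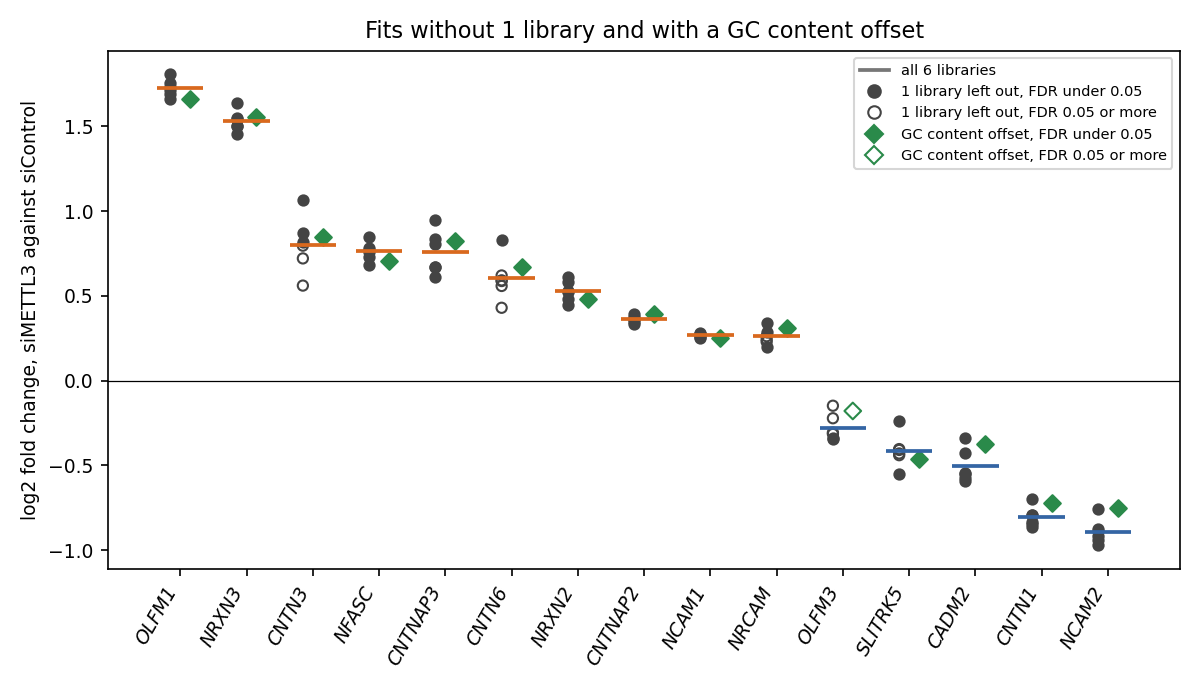
Log2 fold change (y axis) of the 15 adhesion genes that passed, with all 6 libraries (line), with each library left out in turn (circles) and with a GC content offset (diamonds); filled symbols have an adjusted p under 0.05. SLITRK5, CNTN3, CNTN6, NRCAM and OLFM3 have open symbols, and the other 10 genes have filled symbols only.

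In all, 10 members passed under every alternative run: NRXN2, NRXN3, CNTN1, CNTNAP2, CNTNAP3, NFASC, NCAM1, NCAM2, CADM2 and OLFM1. SLITRK5, CNTN3, CNTN6, NRCAM and OLFM3 lost their call under at least 1 of them, as the plot of fits without 1 library shows. None of the 15 overlaps another gene of the tables. In GENCODE 44, 11 of the 15 have an annotated antisense gene, and since the counting was not set to use strand, reads of the 2 strands cannot be told apart.

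Genes that work with the members were counted from lists. Over all genes tested, 18.6% were called higher and 19.2% lower. Among 43 tested of 50 other synaptic adhesion and organiser genes, 16 were higher and 9 lower (37.2% and 20.9%), with a median log2 fold change of 0.13. The netrin-G protein NTNG2 (2.08, adjusted p = 1.80e-09), the calsyntenin CLSTN2 (1.42, adjusted p = 2.72e-08), which belongs to a family of neurexin-binding cadherins, and LRFN2 (1.07, adjusted p = 3.65e-07) rose. LGI2 (-1.10, adjusted p = 9.35e-05), the teneurin TENM3 (-0.58, adjusted p = 0.000105) and FLRT2 (-0.45, adjusted p = 0.000256) fell. Of 27 tested genes among 30 other neuronal immunoglobulin adhesion genes and related phosphatases, 7 were higher and 5 lower (25.9% and 18.5%, median 0.022), with PTPRU (0.66) and KIRREL3 (0.66) among the first and PTPRK (-1.46, adjusted p = 2.36e-06) and NEGR1 (-0.76) among the second.

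Inside the cell, neurexins, contactin-associated proteins and L1 proteins are held by scaffolds such as CASK, the protein 4.1 family and ankyrins. Of 43 tested scaffold and anchor genes, 9 were higher and 6 lower (20.9% and 14.0%, median 0.056). APBA1 (Mint1), which joins CASK in a presynaptic complex, rose by 1.22 (adjusted p = 3.35e-08), and the ankyrin ANK1 by 0.59 (adjusted p = 3.22e-05). EPB41L3, of the protein 4.1 family, fell by 0.26 on the log2 scale (adjusted p = 0.00300). Of 25 tested enzymes that shed or glycosylate adhesion molecules, 8 were higher and 7 lower (32% and 28%, median 0.080), against 18.6% and 19.2% of all genes tested. ST8SIA4, which builds polysialic acid on NCAM1, went from 8.92 ± 1.31 to 4.44 ± 0.568 CPM (SD, n = 3 each; log2 fold change -0.995, adjusted p = 0.000338), in the comparison in which NCAM1 itself was higher. Polysialic acid itself was not measured. The gamma-secretase subunit NCSTN fell by 0.49 on the log2 scale (adjusted p = 9.90e-05) and the subunit APH1B rose by 0.76 (adjusted p = 0.000187). All log2 fold changes in these lists come from the same fit across 15311 genes.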

How the data were processed

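RNA-seq of 6 Kelly cell libraries (3 siControl, 3 siMETTL3) was used. The values are raw gene counts deposited by the authors, 1 table per library. Per the file headers, reads were assigned with featureCounts 1.5.3 over the whole span of each gene (GENCODE 33), introns included, without a strand setting, and a read in overlapping genes was counted for each. The submitters' processing notes also list FastQC 0.11.5, Trimmomatic 0.36 and HISAT2 2.1.0. Counts were fitted here with edgeR 4.0.16 (R 4.3.3): filterByExpr, TMM scaling, robust quasi-likelihood test, Benjamini-Hochberg adjustment over 15311 genes, threshold 0.05. Fold changes are siMETTL3 over siControl, CPM are TMM-scaled, and errors are SD (n = 3) or SE. DESeq2 1.42.0, limma-voom (limma 3.58.1), other scalings, filters and offsets, and fits without 1 library were the alternatives. The script was tested on simulated counts. The 38 genes, the gene lists and the tests were chosen with earlier results of these data known. All members are accounted for, and from each further list up to 3 genes per direction with the smallest adjusted p could be named. Transcript length, GC content and GGACT sites come from GENCODE 44 canonical transcripts and promoters from RefSeq (GRCh38.p14). PALS1 and PALS2 were matched under the symbols MPP5 and MPP6, and FLRT1 and SPTBN4 were not analysed here. Libraries of a group differed by more than counting error: chi-square per degree of freedom between them was 5.57 to 16.1 in siControl, highest with replicate 3, and 3.05 to 3.75 in siMETTL3.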

Additional observations from a re-analysis of the deposited data

How the results depend on the processing

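The direction and call of OLFM1, NRXN3, NRXN2, CNTN1, CNTNAP2, CNTNAP3, NFASC, NCAM1, NCAM2 and CADM2 held under every alternative run. With all libraries, 5786 genes, 10 higher and 5 lower members passed. Leaving out 1 library at a time gave 4210 to 6394 genes, 7 to 13 higher and 3 to 6 lower members. Without overlapping genes, 3750 of 9518 tested genes passed (39.4%), since fewer genes were tested; with a gene span offset and the replicate block, 8 members were lower, and the cause was not tested. The replicate block alone gave 6166 genes, 12 higher and 5 lower members, adding NLGN2 (adjusted p = 0.0193) and CADM1 (adjusted p = 0.0378). The labels do not say whether replicate numbers pair the samples. Deviations of same-numbered libraries correlated at 0.040, 0.049 and 0.067, against -0.064 to 0.026 otherwise. Each library thus correlated best with its own number. No member that passed changed sign. For CNTN2 the log2 fold change was -0.00080 with all settings as reported, 0.00070 with RLE scaling, 0.013 with upper quartile, 0.021 with total counts, 0.0051 with 10 counts in every library, 0.0015 with DESeq2 and 0.0051 with the replicate block. NLGN4X was 0.0062 with total counts, and SLITRK1 0.051 with the gene span offset and 0.050 with the replicate block added. With a GC content offset and without siControl replicate 3, NLGN4X was 0.053 and SLITRK6 0.33. Across fits without 1 library, the sign changed in LRRTM3 (-0.029 to 0.66), LRRTM4 (-0.039 to 0.13), CNTN2 (-0.084 to 0.047), NLGN4X (-0.054 to 0.055), SLITRK6 (-0.61 to 0.26), CNTN4 (-0.010 to 0.10) and SLITRK1 (-0.15 to 0.00077). OLFM3 also lost its call with upper quartile scaling (adjusted p = 0.0583), total counts (0.0571) and limma-voom (0.0519). A pseudocount alternative was not run, since the values are counts. Changes in SLITRK6, LRRTM3, CHL1 and SLITRK2 are limited by depth.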
